A study of Mus musculus with 10 samples.

Results

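Dcn (decorin), Bgn (biglycan), Aspn (asporin), Fmod (fibromodulin), Epyc (epiphycan) and Chad (chondroadherin) were followed in single cells of the mouse Grem1 and Lepr lineages. These 6 genes, of 29183 listed for both lineages, were chosen by name as small leucine-rich proteins of the cartilage matrix. Grem1-TdT mice carry the tamoxifen-inducible Grem1-creERT and an R26-LSL-TdTomato reporter. A cell that transcribed Grem1 while the drug was present is labelled, and so are its descendants. Lepr-TdT mice carry a constitutive LepR-cre with a TdTomato reporter, which labels any cell that has transcribed Lepr at any age, and its descendants. All mice were C57BL/6, Grem1-TdT mice began tamoxifen in the chow at an age of 5 to 6 weeks and were killed after it. The labels give 2 weeks of tamoxifen, and the methods 10 days with harvest at 7 to 9 weeks of age. Lepr-TdT mice were of matched age. Cells of the hind limbs were sorted by TdTomato into 96-well plates. For the Grem1 lineage, articular cartilage and growth plate had been excised, while Lepr-lineage cells came from whole bones and were also negative for CD45, Ter119 and CD31. Tissue, digestion and sort thus differ with the lineage, and their effects and that of the lineage cannot be told apart.

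There were 8 Grem1 plates and 2 Lepr plates. How many mice gave each plate, and whether a plate holds articular cartilage, growth plate or both, is not given in the sources used here, so the p-values measure the spread between plates, which may in part be technical. A well counted as a cell if at least 350 of the genes listed for its lineage were detected in it. This held for 684 of 768 in the Grem1 lineage and 160 of 162 in the Lepr lineage, for which more genes are listed. Over the shared genes alone, the same 684 reach this minimum, but only 41 and 36 cells of Lepr plates 1 and 2. A Grem1-lineage cell was placed on the Clu side if it held more unique molecular identifiers (UMIs, tags that count each captured molecule once) of Clu, Cilp and 1500015O10Rik together than of Cnmd, and on the Cnmd side otherwise. This gave 414 cells on the Clu side and 270 on the Cnmd side. The sides are ranges of a score rather than cell types, with 25 cells within 2 UMIs of the limit, 4 of them tied, and none of the 6 genes was used to draw it. Plate sums held 51229 to 78395 UMIs on the Clu side, 57206 to 106289 on the Cnmd side and 59981 to 64310 in the Lepr lineage. The median cell held 1217 UMIs on the Clu side, 2218.5 on the Cnmd side and 505 in the Lepr lineage, counted over the shared genes. All Grem1 plates use one set of 96 well barcodes, and the Lepr plates have 70 well barcodes in common, so that a shared barcode does not mark a shared cell.

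The labels were set beside marker genes. CPM are UMIs of a gene as a share of a fixed total of UMIs per sum, over the genes listed for both lineages. All 10 chondrocyte markers had UMIs on both sides. Their summed level was 160272 to 240208 CPM on the Clu side and 108923 to 163154 CPM on the Cnmd side. Cytl1 alone had a mean of 160716 CPM on the Clu side and 21698 CPM on the Cnmd side, and carries this order. Comp was also higher on the Clu side, 3110079O15Rik did not pass the test, and Acan and the collagens of the list were lower there. In the Lepr lineage the same list summed to 123 and 5389 CPM, with Col9a1 at 0. Marrow stromal markers, 5 of 5 detected, summed to 20542 and 29664 CPM in the Lepr lineage and to at most 399 CPM in any Grem1 sum. Blood cell markers summed to 16635 and 23801 CPM in the Lepr lineage, where 8 of 9 were detected despite the sort against CD45, and to at most 6025 CPM in the Grem1 lineage. Osteoblast markers had a median of 2837 CPM on the Clu side and 3785 CPM on the Cnmd side, reached 62385 and 20471 CPM in the highest sums of these sides, and stood at 2866 and 13198 CPM in the Lepr lineage. The endothelial list reached at most 36.1 CPM in any sum, and the fibroblast list 776 CPM on the Clu side, 130 CPM on the Cnmd side and 727 CPM in the Lepr lineage. The part of these other cells in the results below was not tested, except where a value without them is given.

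Small leucine-rich proteoglycans are secreted proteins whose core of leucine-rich repeats folds into a curved solenoid. Many bind collagen fibrils through this core and help to set how wide and how regularly spaced the fibrils are. Decorin, biglycan and asporin form one class of the family, and decorin and biglycan carry chondroitin or dermatan sulphate chains that asporin lacks. Fibromodulin belongs to a class that carries keratan sulphate and binds type I and type II collagen. Epiphycan belongs to a further class and is known from the growth plate and other young cartilage. Chondroadherin has a similar repeat fold without these chains, binds type II collagen and is recognised by integrins on chondrocytes.

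The genes lie on 5 chromosomes of GRCm38 (mm10). Dcn lies at chr10:97479609-97518143 and Epyc at chr10:97644068-97682454, on the same strand and 126 kb apart, with the related genes Lum and Kera between them. Bgn lies at chrX:73483602-73495933 and Fmod at chr1:134037254-134048277. Chad, at chr11:94565047-94569127, sits within Acsf2 on the other strand without sharing exons. Exons of Aspn, at chr13:49544443-49567565, overlap those of Cenpp on the other strand, and exons of Epyc overlap those of the noncoding Gm10754. Whether counting used the strand is not given in the sources used here. Gm10754 had 0, 7 and 0 UMIs on the Clu side, on the Cnmd side and in the Lepr lineage, and Cenpp had 43, 10 and 1, so that the values of Aspn are uncertain for this reason too.

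The 250 bases before the RefSeq start (GRCm38.p6) are shown for Chad, Epyc, Bgn and Fmod, which between them rose, fell or did not pass the test between the sides. Capitals mark each match, on either strand, to the TATA box TATAAA, the GC box GGGCGG and a pair of sequences that SOX proteins can bind, ACAAAG being the first of them and ACAATG the other. Of the 6 genes, 5 had an entry, and Dcn had none.
Chad, chr11:94564797-94565046, plus strand: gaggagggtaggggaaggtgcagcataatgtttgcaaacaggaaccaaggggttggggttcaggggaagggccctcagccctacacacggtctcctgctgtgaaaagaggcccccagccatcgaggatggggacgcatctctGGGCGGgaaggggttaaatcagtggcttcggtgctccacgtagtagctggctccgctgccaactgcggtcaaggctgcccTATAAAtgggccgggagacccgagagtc
Epyc, chr10:97643818-97644067, plus strand: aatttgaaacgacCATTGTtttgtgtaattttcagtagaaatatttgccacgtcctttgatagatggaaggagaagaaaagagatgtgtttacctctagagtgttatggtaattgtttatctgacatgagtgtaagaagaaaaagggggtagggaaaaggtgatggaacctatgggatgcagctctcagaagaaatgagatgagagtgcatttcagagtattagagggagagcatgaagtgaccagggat
Bgn, chrX:73483351-73483600, plus strand: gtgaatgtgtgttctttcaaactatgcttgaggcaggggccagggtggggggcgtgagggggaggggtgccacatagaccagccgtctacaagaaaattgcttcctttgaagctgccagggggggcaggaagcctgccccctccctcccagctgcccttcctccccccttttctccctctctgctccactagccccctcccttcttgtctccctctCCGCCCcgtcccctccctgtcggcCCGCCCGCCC
Fmod, chr1:134037004-134037253, plus strand: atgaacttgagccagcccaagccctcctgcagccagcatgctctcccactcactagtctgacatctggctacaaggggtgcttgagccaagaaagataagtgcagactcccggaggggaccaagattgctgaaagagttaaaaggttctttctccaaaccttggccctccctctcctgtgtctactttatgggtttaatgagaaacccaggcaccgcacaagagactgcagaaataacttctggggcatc

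The Chad window holds TATAAA 28 bases before the start and GGGCGG 108 bases before it. The Epyc window holds ACAATG on the opposite strand, 237 bases before the start. The Bgn window holds GGGCGG on the opposite strand at 34, 10 and 6 bases before the start, the last 2 of which overlap, and the Fmod window holds none of these letters. Of all 32851 windows of this length, 12.4% hold TATAAA, 16.5% ACAAAG, 10.7% ACAATG and 32.7% GGGCGG on either strand. These are matches of letters only.

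The question of the first comparison was how cells of the same lineage and plate differ when split along the Clu to Cnmd axis. Dcn and Chad were higher on the Clu side, Epyc and Bgn were higher on the Cnmd side, and Fmod did not pass the test. Aspn was too rare to be tested. Thus 4 of the 5 genes tested passed, 2 in each direction, where 41.0% of all 1071 genes tested did so (20.9% higher and 20.1% lower on the Clu side). Levels are CPM after TMM scaling, fold changes are from edgeR's quasi-likelihood test on plate sums, and p-values are adjusted over all genes tested. This fit does not use the pairing of the sides by plate, and a fit with the plate as a block is given below as an alternative. The scaling bears on direction, because without TMM the median of all genes moved from 0.01 to -0.34 and the split of calls from 224 higher and 215 lower to 130 higher and 393 lower. The directions of Dcn, Chad, Epyc and Bgn were the same under both scalings. Without the 8 Grem1-lineage cells that hold over 5% osteoblast marker UMIs, the log2 fold changes were 3.71 for Dcn, 1.77 for Chad, -4.03 for Epyc, -0.80 for Bgn and -0.11 for Fmod, with the calls as before.

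Dcn, a fibril-binding proteoglycan of most connective tissues, had a level between 17491 and 28903 CPM on the Clu side, with a median of 22471 CPM over 8 plates. On the Cnmd side it lay between 1508 and 2698 CPM, with a median of 1577 CPM. Every Clu side sum was above every Cnmd side sum, a separation found for 12.2% of the genes tested. The means were 22397 ± 3477 and 1770 ± 426 CPM (SD, n = 8 plates each), a 12.7-fold ratio of means. The log2 fold change was 3.72 ± 0.17 (SE, edgeR adjusted p = 2.3e-12). In an exact two-sided sign-flip permutation test over the 8 plates, p was 0.0078, the smallest that 8 plates can give. In cells thinned to 796 UMIs each, 97.7% of Clu side cells (95% Clopper-Pearson interval 95.6 to 99.0%) and 70.6% of Cnmd side cells (64.7 to 76.1%) held a Dcn UMI, with means of 16.2 and 1.61 UMIs per cell. Before thinning the shares were 98.8% and 94.4%.

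Chad, which encodes a protein that links collagen to chondrocyte integrins, was between 25688 and 42285 CPM on the Clu side, with a median of 35997 CPM. On the Cnmd side it was between 5137 and 17955 CPM, with a median of 10939 CPM. The sides did not overlap, and within each of the 8 plates the Clu side was higher. The means were 34186 ± 6199 and 10372 ± 4615 CPM (SD, n = 8 plates each), and the log2 fold change was 1.78 ± 0.25 (edgeR adjusted p = 7.3e-06, exact sign-flip p = 0.0078). Nearly all cells of both sides held Chad UMIs, 99.4% (98.0 to 99.9%) and 98.5% (96.1 to 99.6%) at equal depth, with means of 23.9 and 9.47 UMIs. For each Dcn UMI there were 1.54 ± 0.29 Chad UMIs on the Clu side and 6.21 ± 3.13 on the Cnmd side (mean ± SD over 8 plates).

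Epyc moved the other way. It was between 903 and 1472 CPM on the Cnmd side, with a median of 1052 CPM, and between 13.7 and 216 CPM on the Clu side, with a median of 40.1 CPM. These Clu side sums rest on 1 to 12 UMIs each, 29 in all, against 57 to 109 UMIs per plate on the Cnmd side. The sides did not overlap, the means were 65.2 ± 67.9 and 1084 ± 181 CPM (SD, n = 8 plates each), and the log2 fold change was -4.01 ± 0.32 (edgeR adjusted p = 6.1e-09, exact sign-flip p = 0.0078). At equal depth 48.1% of Cnmd side cells (41.9 to 54.3%) and 4.80% of Clu side cells (2.82 to 7.58%) held an Epyc UMI. Before thinning these shares were 74.4% and 6.76%. Epyc thus differed in the share of cells with a UMI, with means at equal depth of 0.80 UMIs per cell on the Cnmd side and 0.048 on the Clu side. At means this low, share and level cannot be told apart. The difference in share was not particular to Epyc, since at equal depth the intervals of Dcn, Bgn and Fmod also lay apart between the sides. Those of Chad overlapped.

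Bgn, the close relative of Dcn, was between 1854 and 3434 CPM on the Cnmd side, with a median of 2891 CPM, and between 1089 and 2238 CPM on the Clu side, with a median of 1679 CPM. The ranges overlapped, and the Clu side was lower on 7 of 8 plates, plate 2 being the exception. The means were 1579 ± 403 CPM on the Clu side and 2756 ± 501 CPM on the Cnmd side (SD, n = 8 plates each), with a log2 fold change of -0.74 ± 0.18 (edgeR adjusted p = 0.0025, exact sign-flip p = 0.016). In plates 1, 2 and 4 alone the change was -0.41 (adjusted p = 0.21), so that the call rests on the other plates as well. At equal depth 58.5% of Clu side cells (53.1 to 63.7%) and 84.0% of Cnmd side cells (79.0 to 88.2%) held a Bgn UMI, against 67.6% and 95.9% before thinning. Dcn and Bgn thus changed in opposite directions, with 15.3 ± 5.59 Dcn UMIs for each Bgn UMI on the Clu side and 0.654 ± 0.149 on the Cnmd side (mean ± SD over 8 plates).

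Fmod, the keratan sulphate proteoglycan, was between 2151 and 5885 CPM on the Clu side, with a median of 2896 CPM, and between 3002 and 6320.4 CPM on the Cnmd side, with a median of 3734 CPM. The ranges overlapped. The log2 fold change was -0.08 ± 0.21 (edgeR adjusted p = 0.78). For the exact test the side sums were scaled without the Lepr plates, and the Clu side was then lower on 6 of 8 plates (exact sign-flip p = 0.30). In the levels above, which were scaled together with the Lepr plates, only plate 2 was higher on the Clu side, at 5885 against 4136 CPM. Without TMM the fold change was -0.43 (adjusted p = 0.16), close to the shift of all genes. At equal depth 58.8% of Clu side cells (53.4 to 63.9%) held an Fmod UMI, against 90.1% of Cnmd side cells (85.8 to 93.4%), while before thinning the shares were 72.9% and 96.3%. Before thinning, the tenth of cells with the most Fmod held 47.0% of its UMIs on the Clu side and 26.2% on the Cnmd side, and for Bgn these shares were 40.9% and 23.5%, so that this spread was not peculiar to Fmod.

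Aspn had 7 UMIs on the Clu side, 4 on the Cnmd side and 4 in the Lepr lineage. It was at 0 in 5 of 8 Clu side sums and 5 of 8 Cnmd side sums, and no more than 1 UMI was found in any cell. A difference in Aspn was not detectable at this depth.

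**Figure D1:**
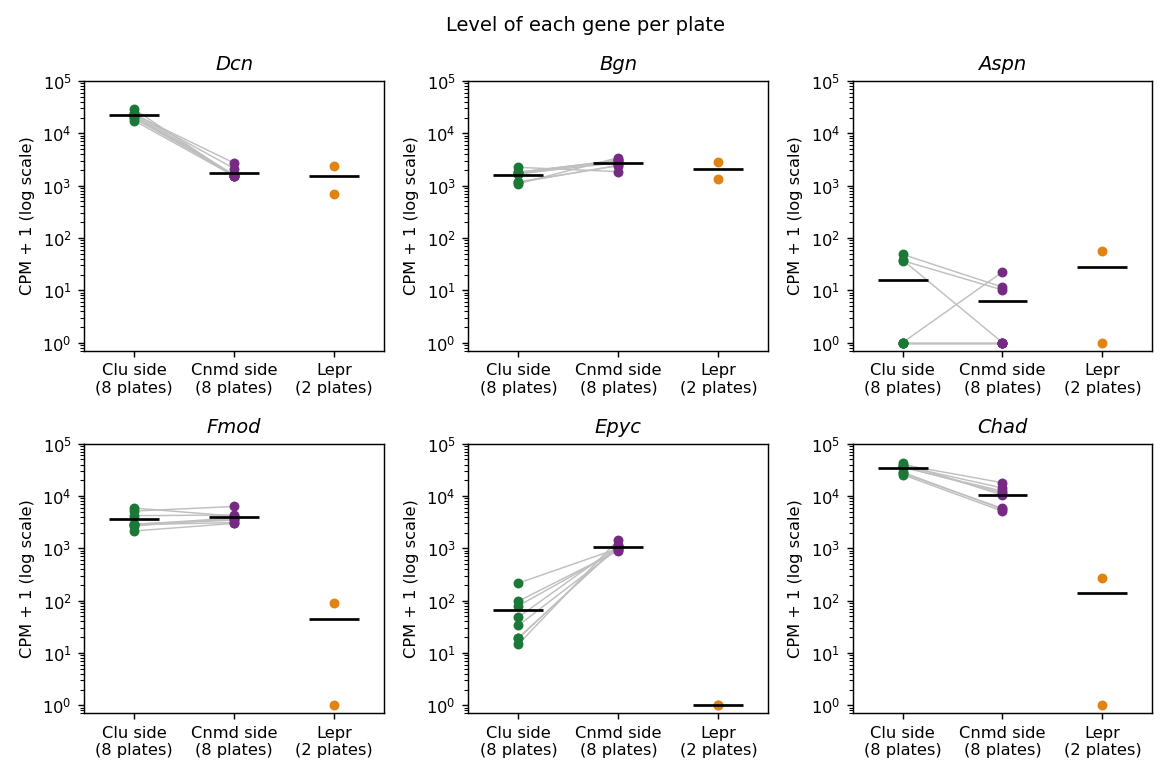
Level of each gene (CPM after TMM scaling plus 1, log axis) in every plate sum of the Clu side and Cnmd side (8 plates each, grey lines join the sides of a plate) and of the Lepr lineage (2 plates), with black bars at the mean. Dcn and Chad fall and Epyc rises from the Clu side to the Cnmd side on all 8 plates, Bgn and Fmod overlap, and Epyc is at 0 in both Lepr plates.

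The change along the axis was also described in finer steps. Cells were divided by the share of Clu, Cilp and 1500015O10Rik among the UMIs of these genes and Cnmd. CPM of the library total were computed in each bin with 95% Clopper-Pearson intervals, which cover counting error only. Dcn was at 1568 CPM (1355 to 1805) where the share was 0 to 10%, at 1774 CPM (1650 to 1905) at 10 to 25% and at 2754 CPM (2442 to 3093) at 25 to 50%. It then stood at 10378 CPM (9692 to 11098) at 50 to 75%, 18229 CPM (17579 to 18897) at 75 to 90% and 22943 CPM (22400 to 23496) above 90%. In CPM, the step between the bins on either side of 50% was thus larger than all steps below it, and the next step up was of similar size. The mean over plates at 50 to 75% was 10755 ± 4489 CPM (SD, n = 7 plates with 3 cells or more). Epyc went from 1592 CPM (1377 to 1831) in the lowest bin through 370 CPM (262 to 507) at 25 to 50% to 38.1 CPM (19.0 to 68.2) in the highest.

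Chad was at 7263 CPM (6796 to 7753) in the lowest bin, 13875 CPM (13169 to 14609) at 25 to 50%, 28883 CPM (27742 to 30057) at 50 to 75% and 32327 CPM (31685 to 32979) in the highest. At 75 to 90% it was at 25950 CPM (25176 to 26742). The plates differed by more than this, with a mean over plates of 28130 ± 14557 CPM (SD, n = 7 plates with 3 cells or more) at 50 to 75% and 26011 ± 5664 CPM (SD, n = 8) at 75 to 90%, so no order is read from these bins. Bgn was at 2949 CPM (2654 to 3268) in the lowest bin and 1358 CPM (1227 to 1500) in the highest. Fmod had its lowest pooled value at 50 to 75%, with 2373 CPM (2050 to 2732). It was at 5451 CPM (5047 to 5878) at the Cnmd end and 3316 CPM (3110 to 3533) at the Clu end. Its means over plates were 2521 ± 1161 CPM (SD, n = 7) at 50 to 75% and 3257 ± 1675 CPM (n = 8) at the Clu end. The low point thus lies within the spread between plates. At the Cnmd end the mean was 5884 ± 764 CPM, from only 4 plates with 3 cells or more. The bins hold 48 to 232 cells, and cells of one plate are not independent.

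**Figure D2:**
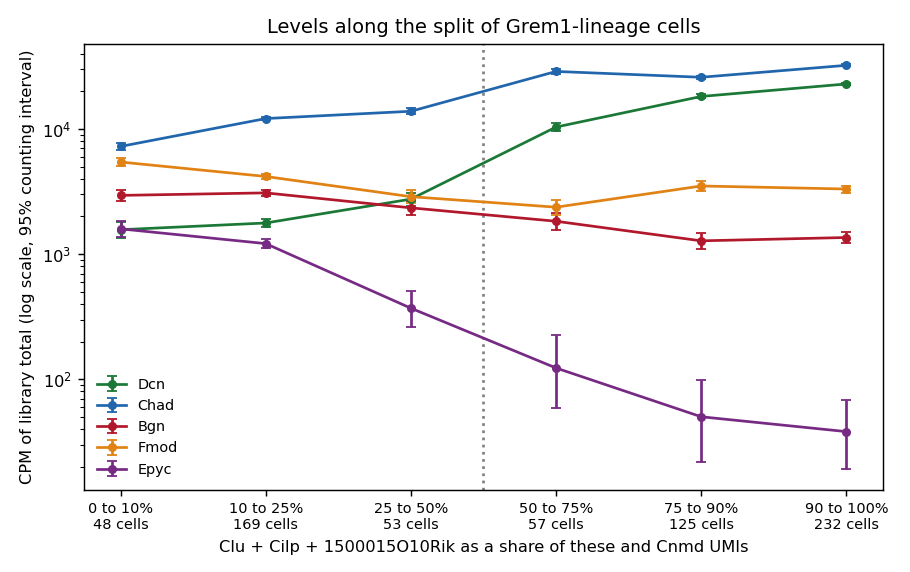
Level of 5 genes (CPM of library total without TMM, log axis) in 684 Grem1-lineage cells binned by the share of Clu, Cilp and 1500015O10Rik UMIs among these and Cnmd, with the number of cells below each bin. Bars are 95% Clopper-Pearson intervals, and the dotted line marks the limit between the sides. Dcn rises from 1568 to 22943 CPM and Epyc falls from 1592 to 38.1 CPM. The pooled value of Fmod is lowest at 50 to 75%, within the spread between plates at the Clu end.

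Fmod and Chad also differed between plates in opposite directions. Plates 1, 2 and 4 are set beside plates 5 to 9 because earlier results of these data had separated them, since the labels name no batch. Fmod on the Clu side was 4219 to 5885 CPM on plates 1, 2 and 4 and 2151 to 2929 CPM on plates 5 to 9. On the Cnmd side it was 4136 to 6320.4 CPM and 3002 to 3793 CPM. Fmod was higher on plates 1, 2 and 4 without overlap on either side. Chad was lower on these plates, at 25688 to 28574 CPM against 35466 to 42285 CPM on the Clu side and at 5137 to 5802 CPM against 10420 to 17955 CPM on the Cnmd side. Epyc did not overlap between the sets on the Cnmd side, at 1125 to 1472 and 903 to 1108 CPM. Dcn and Bgn overlapped between the sets on both sides, Dcn being at 17491 to 22886 and 19280 to 28903 CPM on the Clu side. Of all 1071 genes, 15.7% did not overlap between the sets on the Clu side and 14.8% on the Cnmd side. No test was made of this split, which was chosen from the data. Within each set of plates, Chad, Dcn and Epyc kept the direction and the call they had over all plates.

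**Figure D3:**
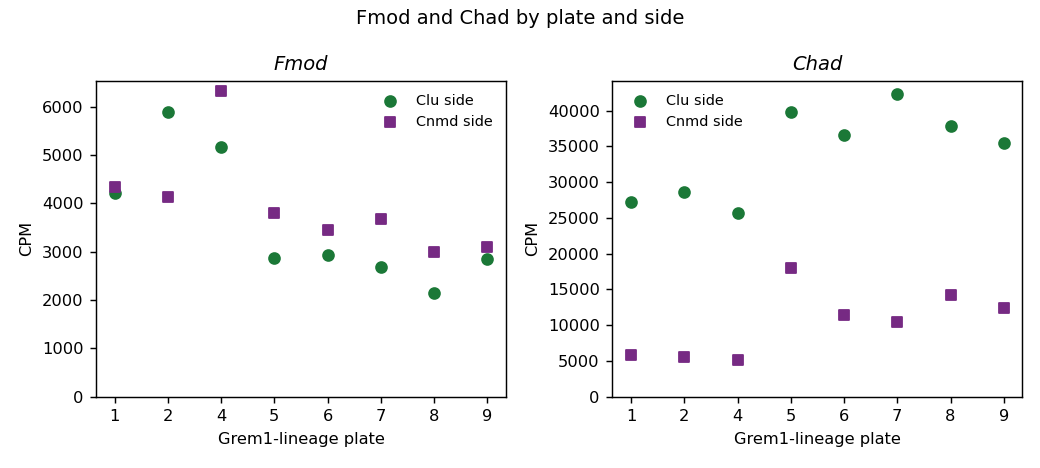
Fmod (left) and Chad (right) level (CPM after TMM scaling, axes from 0) on each Grem1-lineage plate, with circles for the Clu side and squares for the Cnmd side. Plates 1, 2 and 4 have Fmod at 4136 CPM or more on both sides, and plates 5 to 9 have Fmod at 3793 CPM or less. Chad on plates 1, 2 and 4 is at 28574 CPM or less on the Clu side and 5802 CPM or less on the Cnmd side. On plates 5 to 9 Chad is at 35466 CPM or more on the Clu side and 10420 CPM or more on the Cnmd side.

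The same opposition was seen among cells of a plate. In Clu side cells thinned to 796 UMIs, the correlation between Fmod and Chad was negative on 8 of 8 plates, with a mean Pearson r of -0.39 (-0.54 to -0.15, 354 cells in all). The cells of a plate share a library, and the correlation is a description. Clu side cells with an Fmod UMI (208 cells) had 19.8 ± 3.46 Chad UMIs and those without (146 cells) had 29.9 ± 4.21 (mean ± SD over 8 plates). Chad was lower in the cells with Fmod on 7 of 8 plates, from 16.9 against 33.3 UMIs on plate 4 to 19.3 against 25.2 UMIs on plate 1, while plate 8 had 27.0 against 22.3 UMIs. Bgn went with Fmod, with 1.33 ± 0.47 UMIs in cells with Fmod and 0.656 ± 0.0999 in cells without, higher on 8 of 8 plates, and a mean r of 0.29 (0.11 to 0.46). Dcn was at 17.7 ± 3.20 and 13.4 ± 3.57 UMIs, higher with Fmod on 6 of 8 plates. On the Cnmd side, the mean r of Fmod and Chad was -0.08, with values from -0.49 to 0.15 over plates, and only 26 cells were without Fmod.

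**Figure D4:**
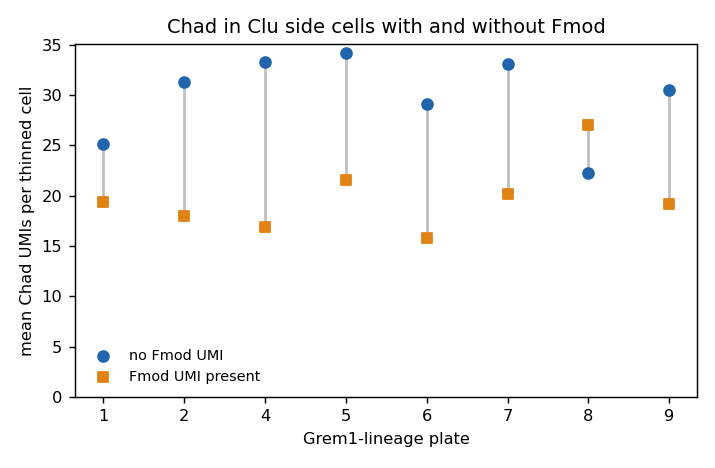
Mean Chad UMIs per Clu side cell, after thinning each cell to 796 UMIs, in cells with (squares) and without (circles) an Fmod UMI on each Grem1-lineage plate. Chad is lower in the cells with Fmod on every plate except plate 8.

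The second comparison placed the Lepr lineage, which in adult bone marks marrow stromal cells and some bone-forming cells, beside the Grem1 lineage. Against whole Grem1 plates, Dcn, Fmod, Epyc and Chad were lower in the Lepr lineage and Bgn did not pass the test. These 4 calls of 5 genes tested, all lower, stand against 28.9% of 2944 genes called, of which 12.2% of genes tested were higher and 16.7% lower. Without TMM the calls went from 358 higher and 493 lower to 681 higher and 315 lower, and the median of all genes from -0.11 to 0.35, while the 4 genes kept their direction. The median log2 fold change of the 5 genes was -4.23, with Epyc at its bound, beside -0.11 for all genes. In a fit with both sides, 4 of the 5 were lower than on the Clu side, where 37.6% of 1983 genes were called, and 3 were lower than on the Cnmd side, where 34.3% were called. Without TMM these splits went from 371 higher and 374 lower to 639 and 243 against the Clu side, and from 331 and 349 to 389 and 274 against the Cnmd side. All 3 fits share the Lepr plates.

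Chad was found in the Lepr lineage at 276 CPM (22 UMIs) on plate 1 and at 0 on plate 2. Every Grem1 sum of either side was higher. Such a separation from the Lepr lineage was found for 37.0% of the genes tested on the Clu side and for 38.5% on the Cnmd side. The log2 fold change was -7.92 ± 0.94 against the Clu side and -6.20 ± 0.87 against the Cnmd side (edgeR adjusted p = 1.5e-06 and 8.2e-06). Of the 22 UMIs, 17 lay in 3 cells of plate 1 that also held at least 10 chondrocyte marker UMIs each. Against whole Grem1 plates the change was -7.29 ± 0.93 (adjusted p = 3.0e-05), and -9.30 without these 3 cells. With plate 1 left out, Chad had no UMI in the Lepr lineage, and the fitted change of -14.45 is then no measure of its size.

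Fmod was at 87.7 CPM (7 UMIs) on Lepr plate 1 and at 0 on plate 2, below every Grem1 sum. The log2 fold change was -6.26 ± 0.70 against the Clu side and -6.41 ± 0.71 against the Cnmd side (edgeR adjusted p = 6.8e-07 and 3.7e-07). The same 3 cells held 5 of the 7 UMIs, and without plate 1 no Fmod UMI was left in the Lepr lineage. Outside them, 2 of the other cells of that plate had an Fmod UMI and 5 had a Chad UMI.

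Epyc had no UMI in 160 Lepr-lineage cells, which allows a share of up to 1.88% of cells with a UMI where the median cell holds 505 UMIs, and sets no limit on cells that express the gene below that depth. Set against a floor of 3 counts per library, a mean of 39.4 CPM, the level on the Cnmd side was at least 27.5-fold higher. On the Clu side, where 5 of 8 sums had 3 UMIs or fewer, the mean was at least 1.66-fold higher. Plate 9, at 216 CPM, raised that mean, and the Clu side median of 40.1 CPM lay near the floor. The test of Epyc against the Clu side (adjusted p = 0.0082) was lost when either Lepr plate was left out, at 0.059 without plate 1 and 0.058 without plate 2, and when each cell was thinned, at 0.11.

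Dcn was at 2331 CPM on Lepr plate 1 and 686 CPM on plate 2, of which the first lay within and the second below the range of the Cnmd side. Against the Clu side, Dcn was lower, with a log2 fold change of -3.89 ± 0.45 (edgeR adjusted p = 1.1e-06) and no overlap. Against the Cnmd side the change was -0.23 ± 0.35 (adjusted p = 0.65), which did not pass the test. This depends on the 3 cells of plate 1 with chondrocyte transcripts, which held 97 of the 186 Dcn UMIs of that plate. Without them Dcn was lower than on the Cnmd side, with a change of -0.93 (adjusted p = 0.020), without plate 1 the change was -1.44 (adjusted p = 0.0097), and without plate 2 it was 0.35 (adjusted p = 0.48). Of the other cells, 41 on plate 1 and 24 on plate 2 held a Dcn UMI.

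Bgn did not pass the test against either side or against whole Grem1 plates. It was at 1341 CPM on Lepr plate 1 and 2825 CPM on plate 2, within the range spanned by the sides. The log2 fold change was 0.40 ± 0.30 against the Clu side, -0.40 ± 0.31 against the Cnmd side and -0.30 ± 0.29 against whole Grem1 plates (edgeR adjusted p = 0.30, 0.35 and 0.47). These differences were smaller than that between the 2 Lepr plates. Without TMM, Bgn was 0.86 higher than on the Clu side (adjusted p = 0.027), and the median of all genes 0.47. Before thinning, 75.6% of Lepr-lineage cells (68.2 to 82.1%) held a Bgn UMI, beside 41.9% (34.1 to 49.9%) with Dcn, 5.00% (2.18 to 9.61%) with Chad and 2.50% (0.685 to 6.28%) with Fmod. At 796 UMIs per cell, which only 36 Lepr-lineage cells reach, 66.7% held Bgn (49.0 to 81.4%), 41.7% Dcn (25.5 to 59.2%), 11.1% Chad (3.11 to 26.1%) and 8.33% Fmod (1.75 to 22.5%).

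The order of levels was thus Clu side, Cnmd side and Lepr lineage for Dcn and Chad. For Dcn, the Cnmd side and the Lepr lineage did not differ beyond their spread when all cells were used. For Fmod, both sides stood above the Lepr lineage and did not differ from each other beyond their spread. For Epyc the Cnmd side stood above both other groups, and the Clu side, with a median near the floor of the Lepr lineage, did not differ from it under every alternative. For Bgn, the Lepr lineage lay between the Cnmd side and the Clu side and differed beyond its spread from neither.

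**Figure D5:**
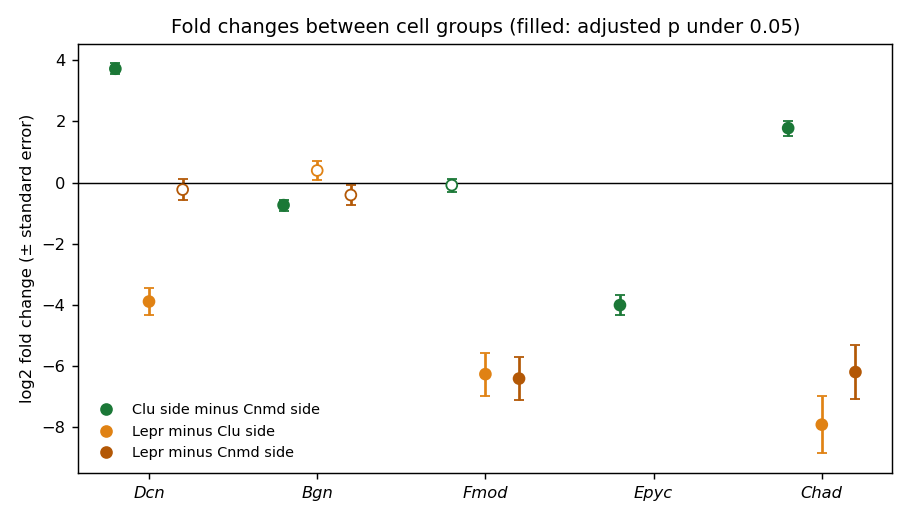
Log2 fold change with its standard error for 5 genes (edgeR, 8 plates per side and 2 Lepr plates), filled where the adjusted p was under 0.05. Dcn and Chad are above 0 and Epyc and Bgn below 0 for the Clu side minus the Cnmd side, and Fmod and Chad are at -6.20 or lower for the Lepr lineage against either side. Epyc against the Lepr lineage, where it had no UMI, is left out.

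Exact permutation tests over whole plates gave p = 0.022 for Dcn, Fmod, Epyc and Chad between the lineages, the smallest that 2 against 8 plates can give, and 0.16 for Bgn (two-sided, log2 of CPM plus 1). The wells left out for having too few genes were also examined. The 84 such Grem1-lineage wells, with a median of 501.5 UMIs, held 623 Chad, 525 Dcn, 175 Fmod, 61 Bgn, 4 Epyc and no Aspn UMIs.

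Of the wider family, 8 of 18 genes were listed for both lineages, and 7 of these were tested. The Grem1-lineage counts as held here stop partway through a gene, and the other 10 genes were not among those before that point. Beside the 4 called above, Ecm2, a related leucine-rich protein encoded 11.7 kb from Aspn, and Chadl, a chondroadherin-like protein, passed the test between the sides. Ecm2 was at 428 ± 106 CPM on the Clu side and 94.7 ± 39.1 CPM on the Cnmd side (SD, n = 8 plates each), with a log2 fold change of 2.25 ± 0.25 (edgeR adjusted p = 3.9e-07). Chadl was at 129 ± 69.9 and 369 ± 126 CPM, with a change of -1.47 ± 0.33 (adjusted p = 0.0014), the opposite direction to Chad. In all, 3 of the 7 were higher and 3 lower on the Clu side, where 20.9% and 20.1% of all genes tested were, with a median log2 fold change of -0.08 beside 0.01 for all genes. In the Lepr lineage, 6 of the 7 were lower than in the Grem1 lineage and none higher, beside 16.7% and 12.2% of all genes tested, with a median of -4.23 with Epyc at its bound, and Chadl had 1 UMI. Against the Clu side 6 of 7 were lower (median -3.89), beside 18.9% of all genes, and against the Cnmd side 4 of 7 (median -4.78), beside 17.6%, both medians with Epyc at its bound. The median of all genes was -0.01 and -0.03 in these comparisons.

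For the other 10 family genes, only the Lepr lineage was analysed. Prelp, which anchors basement membranes to connective tissue, had 82 UMIs in 46 of 160 cells, and Ogn (osteoglycin) had 29 UMIs in 24 cells. Podnl1 had 14 UMIs, Lum 10, Podn 8, Omd 3 and Tsku 3. Kera, Optc and Nyx had no UMI at this depth. Bgn, with 313 UMIs, and Dcn, with 236, were thus the family genes with the most UMIs in these cells.

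The enzymes that build chondroitin and dermatan sulphate chains were counted from a list of 19, all listed for both lineages. Between the sides, 5 passed the filter on low counts, 2 were higher on the Clu side, 1 was lower and 2 did not pass the test, with a median log2 fold change of 0.26. The 3 called of 5 stand beside 41.0% of all genes tested. Dse, which converts chondroitin to dermatan sulphate by epimerisation, was higher on the Clu side (1.76 ± 0.40, edgeR adjusted p = 0.0018), as was Csgalnact2, which starts or extends the chain (1.53 ± 0.41, adjusted p = 0.0057). Chst11, a chondroitin 4-sulphotransferase, was lower (-2.02 ± 0.32, adjusted p = 3.5e-05), at 182 ± 98.0 CPM on the Clu side and 770 ± 313 CPM on the Cnmd side. Against whole Grem1 plates, 5 of 10 were lower in the Lepr lineage and none higher (median -1.79, with Csgalnact1, which had no Lepr UMI, at its bound), where 16.7% of all genes tested were lower. Among these, Chst11 was at -3.31 ± 0.73 (adjusted p = 0.0028), B4galt7 at -2.15 ± 0.62 (adjusted p = 0.015) and Chst12 at -2.08 ± 0.44 (adjusted p = 0.0023). In the fit with both sides, 3 of 8 were lower than on the Clu side (median -1.54), beside 18.9% of all genes, and 5 of 8 lower than on the Cnmd side (median -1.72), beside 17.6%.

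Of 16 collagens of fibrils, of their surface and of the type VI network, 13 were tested between the sides, and 8 were lower on the Clu side and 2 higher (median -1.23), where 20.1% and 20.9% of all genes tested were. Col12a1, which coats fibrils, changed by -2.49 ± 0.26 (edgeR adjusted p = 2.3e-07), and the cartilage collagens Col9a1, Col9a3 and Col2a1 by -2.35 ± 0.27, -2.0 ± 0.20 and -1.92 ± 0.18 (adjusted p = 7.4e-07, 1.2e-07 and 4.6e-08). Col2a1, the main collagen of cartilage, was at 16360 ± 5128 CPM on the Clu side and 64772 ± 10349 CPM on the Cnmd side. Col5a2 was higher on the Clu side (2.51 ± 0.34, adjusted p = 6.0e-06), and so was Col1a2 (1.97 ± 0.67, adjusted p = 0.025), which is also on the osteoblast list and ranged from 816 to 20507 CPM between Clu side sums. In the Lepr lineage, 10 of 15 collagens were lower than in whole Grem1 plates and none higher (median -2.61). Of 14, 8 were lower than on the Clu side (median -3.05), and 9 were lower and 1 higher than on the Cnmd side (median -3.72). Of all genes, 16.7%, 18.9% and 17.6% were lower in these comparisons. The 1 that was higher was Col3a1 (4.15 ± 0.82, adjusted p = 4.1e-04), with 7 UMIs on the Cnmd side.

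The genes most like each of the 6 were looked for among 2469 genes over the 16 sums of the Grem1 lineage, by Pearson's r of log2(CPM + 1). The sums share plates and carry the difference between the sides, so r is a description. Dcn was most like Gas1 (0.98), Cilp2 (0.98) and Cytl1 (0.97), and Gas1 stood at 3329 ± 778 CPM on the Clu side and 89.2 ± 38.4 CPM on the Cnmd side. Chad was most like Cst3 (0.96), Cd200 (0.95) and Fhl1 (0.94). Epyc was most like Col9a1 (0.95), Col9a2 (0.95) and Fscn1 (0.94), of which Fscn1 was at 61.9 ± 50.4 CPM on the Clu side and 526 ± 80.5 CPM on the Cnmd side. Bgn was most like C1qtnf6 (0.91), Gm13413 (0.86) and Col12a1 (0.85). For Fmod the highest values were lower, at 0.81 for Gm11942, 0.81 for Gm14494 and 0.79 for Gm11469. No gene was sought for Aspn, which was too rare.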

How the data were processed

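UMI counts per gene and cell were analysed as the authors deposited them, as whole numbers without normalisation. The submitters' processing notes name mm10, UMI-tools, STAR, featureCounts, SAMtools and Seurat without versions, and the strand used in counting is not given in the sources used here. The Grem1-lineage counts were used for 29183 genes, since they stop partway through a gene as held here and that 1 gene was left out, and the Lepr-lineage counts list 50508 genes. All CPM are shares of the UMIs of the shared genes only. On Lepr plates 1 and 2 these genes hold 64310 of 158749 and 59981 of 145484 UMIs. Groups follow the sample labels. The genes, lists, limits and alternatives were chosen with earlier results of these data known.

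Wells with at least 350 detected genes, of those listed for their lineage, were kept, and UMIs were summed per plate and group (at least 10 cells). Sums were tested with edgeR 4.0.16 in R 4.3.3 (TMM, filterByExpr, quasi-likelihood fit, Benjamini-Hochberg adjustment over all genes tested, threshold 0.05), with DESeq2 1.42.0 as an alternative. Genes of the split were not tested between sides. Standard errors were taken from the F statistic and are approximate. For shares of cells, each cell was thinned to 796 UMIs, the 10th percentile of Grem1-lineage cells, which left out 68 Grem1-lineage and 124 Lepr-lineage cells. Intervals and floors cover counting error only. No doublet caller was run, since wells were filled by single cell sorting. Plates held 59981 to 179071 UMIs, and levels that rest on fewer than about 10 UMIs are imprecise.

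Named genes are the 6 themselves, the 3 most correlated genes of each (among genes at 50 CPM or more on average), and up to 4 genes per list and direction that passed the test, by size of change. Sums of the sides come from the same plates, and deviations of same-plate sums correlated on 8 of 8 plates (mean 0.269, 0.144 to 0.417, against -0.038 for different plates), so they are paired by plate. The main fit between the sides did not use this pairing, while the exact sign-flip test and the alternative with the plate as a block did. Tests were checked on simulated counts. Alternatives were other size factors, DESeq2, filters, depth, plate sets, each plate left out, the plate as a block and other limits between the sides. Added after the data were seen were library totals without TMM, and sums without Lepr-lineage cells with at least 10 chondrocyte marker UMIs or without Grem1-lineage cells with over 5% osteoblast marker UMIs.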

Additional observations from a re-analysis of the deposited data

Results flagged for a closer look

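Among groups of 8 plates, 4 values stood far from the rest by Dixon's test, which picks about 1 in 20 groups by chance. Fmod on the Cnmd side was at 6320.4 CPM on plate 4, the next highest plate being at 4341 CPM. Epyc on the Cnmd side was highest on the same plate, at 1472 CPM, with the next at 1147 CPM. Epyc on the Clu side was at 216 CPM on plate 9, from 12 UMIs, and the next highest plate was at 96.8 CPM. Without plate 9 the log2 fold change of Epyc between the sides was -4.60, against -4.01 with all plates. Epyc over whole Grem1 plates was lowest on plate 7, at 517 CPM, and the next lowest plate was at 657 CPM.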

How the results depend on the processing

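Of the log2 fold changes and counts of calls recomputed under alternatives, 505 stayed the same. For a fold change this means the same direction and call, and for a count a move of at most 1.5 times. Of the fold changes, 4 lost the call, 3 gained one and 7 changed sign, and 13 counts moved by over 1.5 times. The cause was not tested except where the alternative itself has fewer samples or genes. Between the sides, the gene minimum over shared genes and sums of at least 5 cells left the sums as they were. These alternatives could not differ from the main fit there, and they are counted among those that stayed the same. Between the sides, the calls of Dcn, Epyc and Chad held under every alternative that gave a value, and Bgn was at -0.41 and Fmod at 0.09 with plates 1, 2 and 4 only. Dcn and Chad are among the 20 most abundant genes and gave no value with these left out. Without TMM, Bgn was at 0.17 between the lineages and 0.86 against the Clu side. With the gene minimum over shared genes Bgn was at -0.69 between the lineages and -0.00058 against the Clu side. With each cell thinned, Epyc against the Clu side was at -4.05, with the call lost, and Dcn against the Cnmd side at 0.14. Without the 3 Lepr cells with chondrocyte transcripts, Dcn against the Cnmd side was at -0.93.

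With 1 plate left out, Bgn ranged from -0.95 to 0.03 between lineages and from -0.29 to 0.76 against the Clu side, Epyc against the Clu side from -5.43 to -4.67, and Dcn against the Cnmd side from -1.44 to 0.35. Each extreme of Bgn and Dcn came from leaving out a Lepr plate, and the remaining Lepr plate was then assumed to vary as the Grem1 plates do. Calls with 1 plate left out ranged from 529 to 849 between lineages, 488 to 733 against the Clu side and 446 to 667 against the Cnmd side. Thinning gave 356 calls of 1474 genes tested between lineages and 177 of 388 between the sides. Against the Clu side it gave 279 of 936, and against the Cnmd side 292 of 936. Between the sides there were 439 calls of 1071 genes tested, 728 of 4991 with DESeq2 and 705 of 12510 without the filter. There were 235 of 1170 with plates 1, 2 and 4 only and 178 of 394 with sides assigned after thinning. The genes tested thus differ too, and the counts alone do not give the share called. With the plate as a block there were 498, the log2 fold changes were 3.74 for Dcn, 1.90 for Chad, -4.04 for Epyc, -0.76 for Bgn and -0.13 for Fmod, and no call of these genes changed. Plates 1 and 2 of each lineage share only a number (mean correlation 0.053), and gave 436 calls with it as a block and 451 without. Of the shares of cells, 15 moved beyond their interval with another depth. Few UMIs limit Epyc on the Clu side, Aspn everywhere, and Fmod and Chad in the Lepr lineage.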
